A study of Homo sapiens with 2 samples.

Results

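The olfactory receptor clusters are stretches of the human genome in which genes for odorant receptors lie side by side. They were taken as 8 intervals of hg19 defined by position, by a rule that uses no H3K27me3 value, although earlier results of these data were known when they were chosen. A pair of intervals lies on the short arm of chromosome 11, either side of the beta-globin genes. They are called here the 11p telomeric cluster (chr11:4380001-5190000) and the 11p centromeric cluster (chr11:5360001-6240000). The others are 11q (chr11:54900001-56600000), 1q (chr1:247600001-248850000), 14q (chr14:20200001-20720000), 6p (chr6:29000001-29560000), 17p (chr17:2960001-3350000) and 9q (chr9:107260001-107470000). Together they hold 6320 bins of 1 kb, of which 5746 were listed with at least 1 read in replicate 1 and 6046 in replicate 2. The whole libraries list 2470347 and 2652211 such bins.

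ChIP-seq for H3K27me3 was done in HCT116 cells, an established line from a human colorectal carcinoma, with no gene edit or treatment named in the labels. Cells were fixed with 1% formaldehyde for 10 min before the immunoprecipitation. There is 1 group of 2 libraries, called biological replicates in the labels, with 53187504 reads in replicate 1 and 97031399 reads in replicate 2. No input library or other antibody was used here, so copy number and mappability are not corrected, and with 2 libraries of 1 group no test between groups exists.

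H3K27me3 is the trimethylation of lysine 27 on histone H3, which Polycomb repressive complex 2 deposits and which usually marks silent developmental genes. Olfactory receptors are G protein-coupled receptors of sensory neurons in the nose, where each mature neuron expresses a single receptor allele. In mouse olfactory neurons the silent receptor genes are known for constitutive heterochromatin, marked by H3K9me3 and H4K20me3. The human genes are divided by family into class I, the fish-like receptors of families 51 and above, which sit on the short arm of chromosome 11, and class II, which is spread over many chromosomes.

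By gene order in the RefSeq table of GRCh38.p14, the 8 clusters hold 187 protein-coding olfactory receptor genes and 120 receptor pseudogenes. Which genes belong to an interval was taken from gene order and general knowledge, because hg19 gene positions were not used here, so the assignment at the ends is approximate and no level is given to a single gene. The 11p telomeric cluster runs from OR52B4 to OR52A1 with 25 receptor genes, and the 11p centromeric cluster from OR51B6 to OR52W1 with 26, all of class I. The other clusters hold class II genes: 45 on 11q from OR4A16 to OR9G4, 43 on 1q from OR2B11 to OR14I1, and 15 on 14q from OR4Q3 to OR11H4. A further 14 lie on 6p from OR2W1 to OR2H2, 11 on 17p from OR1D5 to OR1E2 and 8 on 9q from OR13F1 to OR13D1. In all, 15 other protein-coding genes stand within these gene runs, among them TRIM5, TRIM6, TRIM34 and TRIM22, antiviral tripartite-motif genes inside the 11p centromeric cluster, and TRIM58 inside the 1q cluster.

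RefSeq promoter sequences of GRCh38.p14, from 250 bases before to 50 after the gene start, were found for 161 of the 187 genes. They were poor in CpG dinucleotides: the median was 1 CpG per 300 bases, against 14 over all 35114 human promoters in the table, and 2.48% of them held 10 or more CpGs, against 56.4% of all promoters. The median GC content was 36.7%, against 58.7% over all promoters. The median was 1 CpG on 11p telomeric, 11p centromeric, 11q, 14q and 6p, 1.5 on 9q, 2 on 1q and 3 on 17p. The 17p cluster had 2 of its 9 promoters at 10 or more CpGs, with a maximum of 39, and a median GC content of 45.7%, whereas 11q had 0 of 42 and 33.3%. Short motifs were read on both strands, and each was counted on its own: TATAAA was present in 39.8% of the receptor promoters against 11.5% of all promoters, TAATTA, a homeodomain core, in 23.0% against 4.84%, and CCCNNGGG, the core bound by Ebf factors, in 8.70% against 19.1%. These shares share the low GC content, and a RefSeq start may lie at the coding start for genes with no mapped 5′ end.

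To show examples of such promoters from both extremes of the mark, the 250 bases before the start of the outermost receptor genes with an entry are given for the cluster with the highest mean level, 17p, and for that with the lowest, 11q. They are written 5′ to 3′ on the gene's strand, on GRCh38.p14, with CpG dinucleotides in capitals.
OR1D5 (chr17:3063608-3063857, minus strand): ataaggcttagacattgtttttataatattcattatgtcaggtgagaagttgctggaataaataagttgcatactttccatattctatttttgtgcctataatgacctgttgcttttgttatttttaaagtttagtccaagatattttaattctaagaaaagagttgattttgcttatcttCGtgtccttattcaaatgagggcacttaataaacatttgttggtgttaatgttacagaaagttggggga
OR1E2 (chr17:3433842-3434091, minus strand): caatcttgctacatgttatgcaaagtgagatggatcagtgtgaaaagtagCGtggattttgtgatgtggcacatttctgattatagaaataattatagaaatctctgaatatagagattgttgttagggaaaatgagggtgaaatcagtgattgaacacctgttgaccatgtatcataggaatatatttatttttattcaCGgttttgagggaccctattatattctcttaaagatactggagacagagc
OR4A16 (chr11:55342951-55343200, plus strand): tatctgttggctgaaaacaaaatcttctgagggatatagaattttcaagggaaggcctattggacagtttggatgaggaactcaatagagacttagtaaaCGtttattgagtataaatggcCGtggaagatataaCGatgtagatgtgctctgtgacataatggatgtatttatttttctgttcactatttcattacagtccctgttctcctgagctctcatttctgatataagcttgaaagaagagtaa
OR9G4 (chr11:56748698-56748947, minus strand): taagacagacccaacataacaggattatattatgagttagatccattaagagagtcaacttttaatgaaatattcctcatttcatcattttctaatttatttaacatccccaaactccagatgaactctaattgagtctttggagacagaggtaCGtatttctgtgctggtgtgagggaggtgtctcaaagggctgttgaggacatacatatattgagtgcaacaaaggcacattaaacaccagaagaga
The 17p promoters printed hold 1 and 2 CpGs, and the 11q promoters 3 and 1. They were taken by position, and neither CpG-rich promoter of 17p is among them.

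All levels are read counts per 1 kb bin over the library's mean of listed autosomal 1 kb bins, and a bin not listed counts as 0. The median listed autosomal bin held 9 reads in replicate 1, a level of 0.409, and 14 reads in replicate 2, a level of 0.373. Replicate 2 lists more bins of few reads, which lowers its mean. Over the same autosomal bins its levels were therefore 1.07 times those of replicate 1, and all 8 clusters were 1.05 to 1.08 times higher in it. The SD of a cluster's level includes this common factor, which cancels in the ratio of a cluster to its flanks.

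The first question was how the clusters stood relative to each other and to their surroundings. They were far from uniform: some were covered by H3K27me3 over most of their length, others were intermediate or marked in part, and 11q was almost bare. The 17p cluster reached 3.44 in replicate 1 and 3.69 in replicate 2. The 14q cluster had 3.38 and 3.60, the 11p centromeric cluster 3.06 and 3.31, and the 11p telomeric cluster 2.67 and 2.83. These 4 clusters stood apart from the rest in both libraries. The 9q cluster had 1.25 and 1.31, the 6p cluster 0.965 and 1.04, and the 1q cluster 0.687 and 0.736. The 11q cluster, the longest, stood lowest at 0.181 and 0.19.

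As means over the libraries the order was 3.56 ± 0.174 on 17p, 3.49 ± 0.161 on 14q, 3.19 ± 0.175 on 11p centromeric, 2.75 ± 0.108 on 11p telomeric, 1.28 ± 0.0406 on 9q, 1.00 ± 0.0523 on 6p, 0.711 ± 0.0346 on 1q and 0.185 ± 0.00620 on 11q (each SD, n = 2). The order was the same in both libraries. The neighbours 17p and 14q differed by less than their SD, whereas the gap from 11p telomeric to 9q was many times it. From 17p to 11q the levels differed 19.0-fold in replicate 1 and 19.5-fold in replicate 2. Counting error, widened by the dispersion of 2.63 between the libraries, was at most 2.14% of the level of any cluster in either library.

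Each cluster was compared with the 500 kb on either side, leaving out bins of another cluster. Over all 8 clusters the level was 1.57 in replicate 1 and 1.68 in replicate 2, against 0.947 and 1.01 in 7060 kb of flank, a log2 ratio of 0.73 ± 0.0013 (SD, n = 2). This mean covers opposite cases. Without the 11q cluster and its flanks the ratio was 1.21, and 6 clusters lay above their flanks and 2 below.

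**Figure D1:**
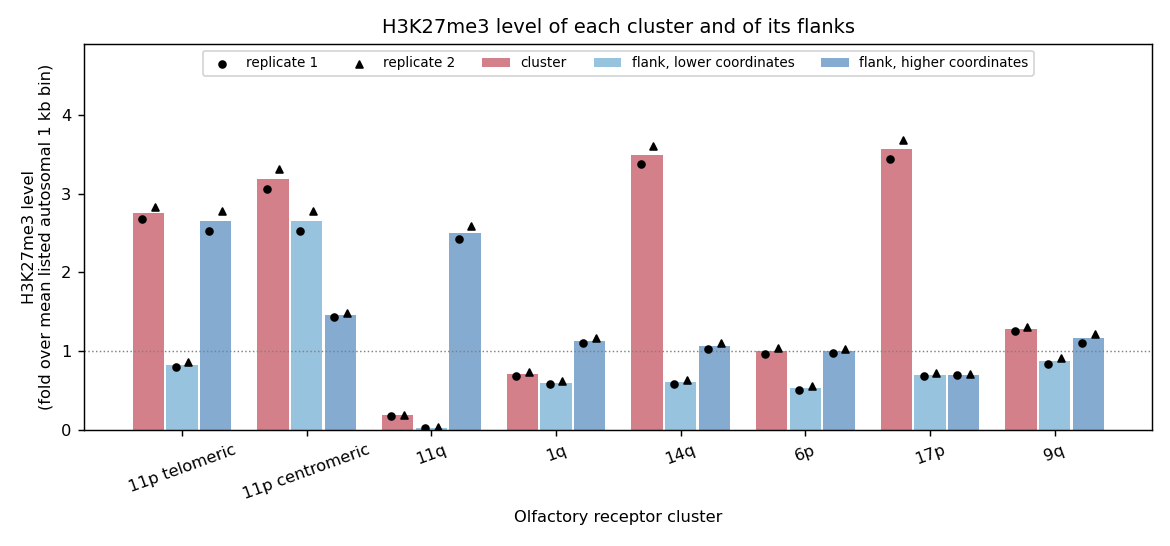
H3K27me3 level (fold over the mean listed autosomal 1 kb bin, vertical axis) of each olfactory receptor cluster and of its flank on either side. Bars are means of the 2 libraries, circles replicate 1 and triangles replicate 2. The clusters 17p, 14q and both on 11p reach 2.75 to 3.56, and 11q stands at 0.185 with a flank of 2.50 at higher coordinates.

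With flanks of 500 kb, the 17p cluster differed most from its surroundings upwards. Its level of 3.44 and 3.69 stood against 0.681 and 0.72 in the flank at lower coordinates and 0.693 and 0.709 in the flank at higher coordinates, a log2 ratio to both flanks of 2.35 ± 0.030. The 14q cluster had a log2 ratio of 2.06 ± 0.012, with flanks at 0.583 and 0.635 below and 1.03 and 1.11 above. The order of 17p and 14q depended on the width of the flank. With 250 kb the ratio was 2.70 on 14q and 2.21 on 17p, and with 1 Mb 1.58 and 2.88. The telomeric cluster on 11p had a log2 ratio of 1.09 ± 0.030 and the centromeric one 0.86 ± 0.018 (each SD, n = 2).

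Both 11p clusters share the 170 kb between them, which hold the beta-globin genes and a few receptor genes by gene order. This stretch stood at 2.52 in replicate 1 and 2.78 in replicate 2, so the mark ran through it. Against that shared flank the log2 ratio was 0.05 ± 0.041 for the telomeric and 0.27 ± 0.018 for the centromeric cluster. Against their outer flanks the ratios were 1.73 ± 0.018 and 1.13 ± 0.040 (each SD, n = 2).

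The 9q and 6p clusters were close to their flanks. The 9q cluster had a log2 ratio of 0.33 ± 0.044 and the 6p cluster 0.39 ± 0.0061 (SD, n = 2). Neither ratio was stable to the width of the flank: with 250 kb the 9q ratio was 0.03, and with 1 Mb the 6p ratio was 0.02. On 6p the flank at lower coordinates stood at 0.503 and 0.554. The flank at higher coordinates, which leads into the class I region of the major histocompatibility complex, stood at 0.975 and 1.03, the same as the cluster within the SD.

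The remaining clusters lay below their flanks. The 1q cluster had a log2 ratio of -0.23 ± 0.0064, and this sign depended on the flank, since 1 Mb gave 0.13. Its flank at higher coordinates ends after 390 kb at the chromosome's last listed bin, so wider flanks add bins only at lower coordinates. Of the 1 kb bins of that upper flank, only 53.8% and 57.7% were listed. Over listed bins alone the 1q ratio was -0.48. The 11q cluster had a log2 ratio of -2.77 ± 0.024 to both flanks (SD, n = 2), which became -1.63 with flanks of 250 kb, where the flank level was 0.572 in place of 1.27. Its flank at lower coordinates reaches towards the centromere, where 15.8% and 20.8% of 1 kb bins were listed, and cannot serve as a comparison. Against the flank at higher coordinates alone, at 2.42 in replicate 1 and 2.59 in replicate 2, the log2 ratio was -3.76 ± 0.022. That flank was uneven. Its first 50 kb stood at 1.01 and 1.10, and an enriched run of 205 kb further out, chr11:56840001-57045000, at 4.62 and 4.95.

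The second question was how much of each cluster carried the mark. A 5 kb bin was called enriched when its reads exceeded the library's autosomal mean per listed 5 kb bin in a one-sided Poisson test (Benjamini-Hochberg adjusted over all 5 kb bins of the autosomes and X) and reached 2-fold over that mean, in both libraries. That minimum corresponds to 1.78 (replicate 1) and 1.90 (replicate 2) on the 1 kb scale used above. Of the 1262 listed bins of the clusters 430 were enriched, or 34.1%, against 218 of 1311 bins of the flanks, or 16.6%, and 14.1% of all bins. Bins under 0.5-fold in both libraries made up 44.8% of the clusters and 40.7% of the flanks, against 56.9% of all bins.

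The enriched bins were concentrated in the same 4 clusters. The 14q cluster had 86 of 104 bins enriched (82.7%), the 17p cluster 62 of 78 (79.5%), the 11p centromeric cluster 126 of 176 (71.6%) and the 11p telomeric cluster 103 of 162 (63.6%). Together these 4 clusters, grouped after their levels were seen, make up 41.1% of the cluster length and held 87.7% of the enriched length, 1885 of 2150 kb. The 6p cluster had 18 of 112 bins enriched (16.1%), the 1q cluster 32 of 248 listed bins (12.9%) and the 9q cluster 3 of 42 (7.14%), shares near or below that of all bins. The lengths called in these 3 clusters depended on the settings. The 15 kb called on 9q became 25 kb with either replicate left out, 85 kb at a minimum of 1.5-fold, 115 kb without one, 180 kb when scaled to the autosomal median and 0 kb at 3-fold. The 90 kb of 6p ranged from 25 kb at 3-fold to 250 kb when scaled to the median, and the 160 kb of 1q from 95 kb to 305 kb under the same settings. The share of all bins under these other settings is not given here, so these lengths cannot be set against it. The flanks moved too, from 1090 kb to 645 kb at 3-fold and to 2725 kb when scaled to the median.

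The 11q cluster had 0 of 340 bins enriched. The limit for a count of 0, here 0.882%, would hold for independent bins, and neighbours are not. At an unadjusted Poisson p under 0.05 the number was also 0 in each library, and no alternative fold minimum, scaling, bin size or dispersion gave 1. The highest 5 kb value was 0.971-fold in replicate 1 and 0.73-fold in replicate 2, so no bin exceeded the mean. A one-sided test against that mean could then call none at any p, fold minimum or dispersion, so those settings add no support. Of its bins 333 (97.9%) lay under 0.5-fold in both libraries. The 1q cluster had 165 such bins (66.5%), and the 11q and 1q clusters together, 46.7% of the cluster length, held 88.0% of the low length of all clusters. The share of low bins on 1q was not far above the 56.9% of all bins.

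**Figure D2:**
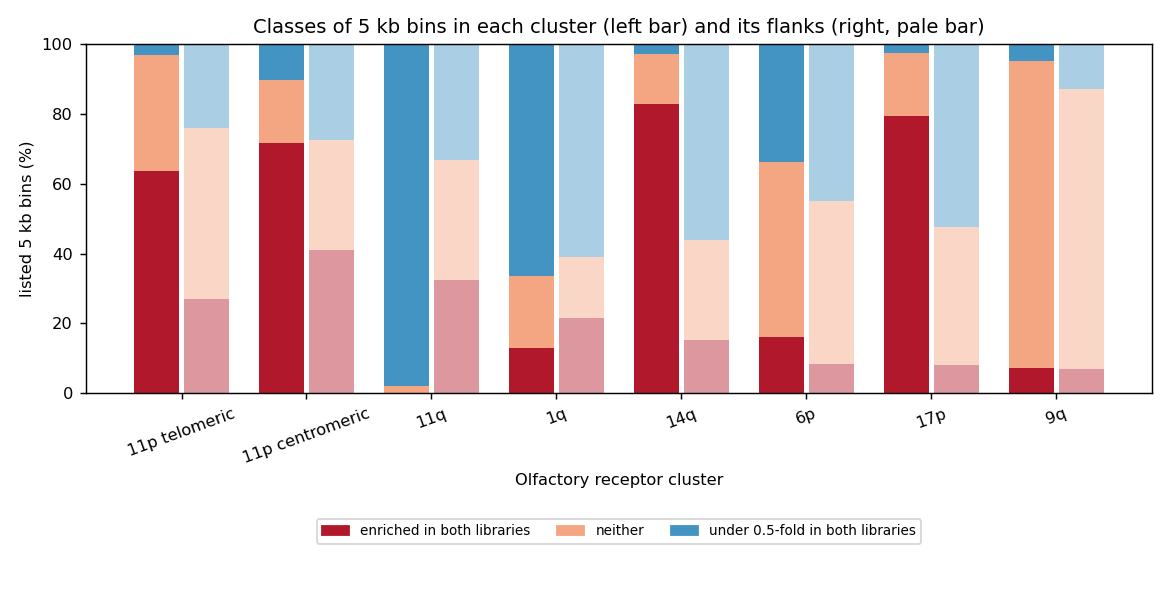
Share of listed 5 kb bins (%, vertical axis) that were enriched in both libraries, under 0.5-fold in both, or neither, in each olfactory receptor cluster (left bar) and in both its flanks together (right, pale bar). Enriched bins make up 63.6% to 82.7% of the clusters on 11p, 14q and 17p and none of the cluster on 11q.

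The mark was described next along each cluster in windows of 50 kb, leaving out shorter windows at the ends. Of 124 windows, 45 stood at a level of 2 or more in both libraries, where 13.9% of autosomal windows did, and 57 stood under 0.5 in both, where 55% of autosomal windows did. Autosomal windows are, here and below, the 52371 with at least 40 kb listed in either library. The windows of the clusters were not filtered in this way. The libraries traced the same profile, with a Pearson's r of 0.997 across the log2 levels of these windows, which share each library's depth and are not independent.

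On 14q all 10 windows were at 2 or more, from 2.47 ± 0.127 to 4.70 ± 0.297, highest at the lower-coordinate end. On 17p all 7 windows were at 2 or more, from 2.25 ± 0.0198 to 4.33 ± 0.343 (SD, n = 2). The last 20 kb of 14q lies in no full window, and the last 50 kb of that cluster stood at only 0.904 and 0.97. On 11p telomeric 9 of 16 windows reached 2, with a maximum of 4.79 ± 0.19 at chr11:4530001-4580000 and a minimum of 1.38 ± 0.0662 at chr11:4930001-4980000. The maximum lay inside the cluster, towards its telomeric side. The outermost window on that side, chr11:4380001-4430000, stood at 2.14 ± 0.0843, and the last full window, chr11:5130001-5180000, at 2.41 ± 0.169.

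On 11p centromeric 15 of 17 windows reached 2, with a maximum of 5.54 ± 0.46 at chr11:6010001-6060000, the highest window of the 8 clusters. A gap of 100 kb at chr11:5610001-5710000 broke this cover: it stood at 0.474 in replicate 1 and 0.481 in replicate 2. The 250 kb before it had 2.77 and 2.98, and the 500 kb after it 3.83 and 4.16. Both sides stood above the gap by far more than the difference between the libraries. By gene order the TRIM5, TRIM6, TRIM34 and TRIM22 genes interrupt the receptor genes of this cluster. Whether they occupy the gap was not tested, since hg19 gene positions were not used.

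The 1q cluster was marked at its ends and low in the middle. The first 150 kb, chr1:247600001-247750000, stood at 2.76 in replicate 1 and 2.99 in replicate 2, and the last 100 kb, chr1:248750001-248850000, at 1.72 and 1.91. The 1000 kb between them stood at 0.272 and 0.281, where the median autosomal window of 50 kb had 0.398. The lowest window, at 0.0942 ± 0.0175, lay at chr1:248650001-248700000. Just outside the cluster the level was higher than the mean of the marked end beside it. Within the lower end, the window chr1:247650001-247700000 reached 3.34 and 3.52. The nearest 50 kb stood at 3.01 and 3.23 below the cluster, and at 3.35 and 3.45 above it. In this cluster 85.4% and 90.4% of 1 kb bins were listed, fewer than the 97.2% or more in each of the 4 clusters of high level.

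The 6p cluster was also divided. Its first 350 kb, chr6:29000001-29350000, stood at 0.491 in replicate 1 and 0.498 in replicate 2, and its next 200 kb, chr6:29350001-29550000, at 1.74 and 1.94. The highest window, chr6:29500001-29550000, stood at 2.29 ± 0.188, against 0.31 ± 0.00837 in the window at its start. The 9q cluster was intermediate throughout, with 4 windows between 1.13 ± 0.0687 and 1.53 ± 0.0558 (SD, n = 2). In bulk cells, the mark on fewer cells or alleles and a lower density on all of them cannot be told apart.

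The 11q cluster was evenly low. All 34 windows lay under 0.5 in both libraries, from 0.135 ± 0.00947 to 0.403 ± 0.0152, with a median of 0.178, where the median autosomal window had 0.398 and the 10th percentile 0.142. Its highest window was the last, chr11:56550001-56600000, next to the marked flank. A stretch of 805 kb at chr11:54900001-55705000 and one of 755 kb at chr11:55710001-56465000 held only bins under 0.5-fold in both libraries, at 0.168 and 0.179, and at 0.175 and 0.181. Of the 1 kb bins of 11q 81.2% were listed in replicate 1 and 93.3% in replicate 2, and over listed bins alone the level was 0.19 in place of 0.185.

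**Figure D3:**
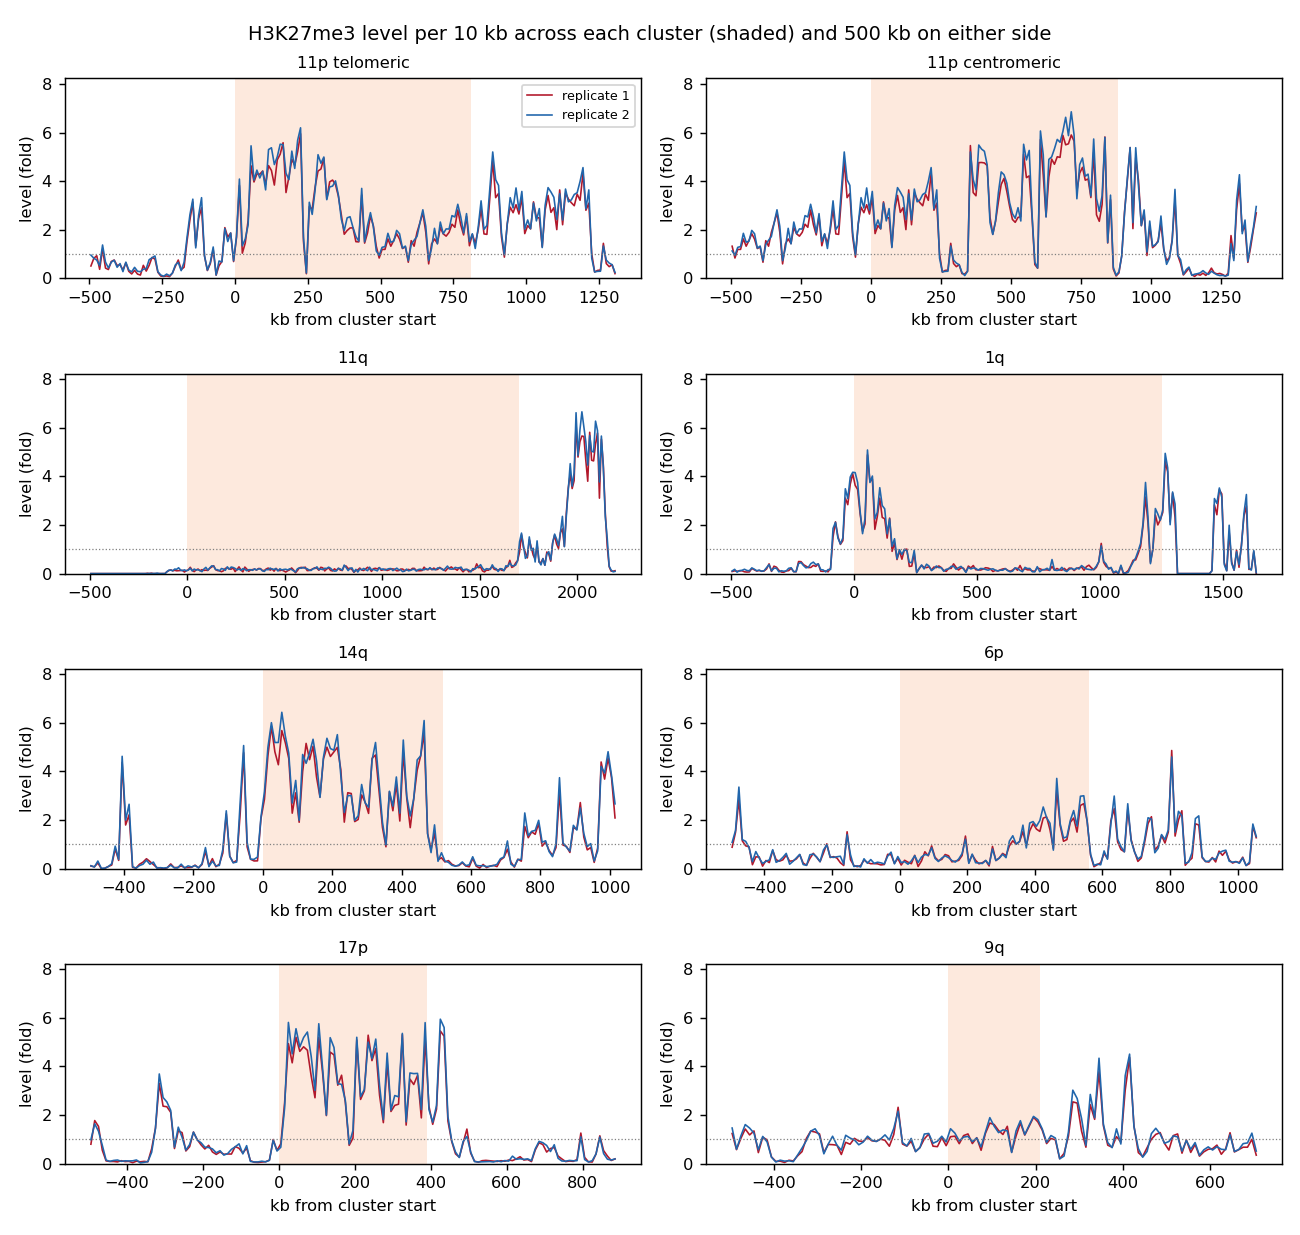
H3K27me3 level (fold over the mean listed autosomal 1 kb bin, vertical axis) per 10 kb across each olfactory receptor cluster (shaded) and 500 kb on either side, against the distance from the cluster's start in kb. The red line is replicate 1 and the blue line replicate 2. The 14q and 17p clusters are marked along most of their length, 14q except at its upper end, 1q at its ends, 6p in its higher-coordinate part, and 11q nowhere, with the level rising past its end.

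Enriched bins, joined across at most 1 bin, formed 40 runs that reach into the clusters, of which 11 were single bins. The longest covered 350 kb of 14q, chr14:20195001-20545000, at 3.94 ± 0.173. On 14q it was followed by 110 kb at chr14:20560001-20670000 (3.54 ± 0.182). The centromeric 11p cluster held runs of 260 kb at chr11:5960001-6220000 (4.51 ± 0.266), 215 kb at chr11:5385001-5600000 (3.03 ± 0.155) and 135 kb at chr11:5800001-5935000 (3.50 ± 0.239). The telomeric 11p cluster held runs of 200 kb at chr11:4415001-4615000 (4.51 ± 0.186) and 115 kb at chr11:4630001-4745000 (3.81 ± 0.0105). The 17p cluster held runs of 165 kb at chr17:2975001-3140000 (4.15 ± 0.223), 130 kb at chr17:3160001-3290000 (3.62 ± 0.12) and 110 kb at chr17:3300001-3410000 (3.41 ± 0.186), each with SD and n = 2. The last of these has 50 kb inside the cluster and continues beyond it.

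These 10 longest runs all lay in the 4 clusters of high level. The longest run of 1q was 80 kb, that of 6p 20 kb and that of 9q a single bin. The highest 5 kb bin of each cluster, read from the same counts, was also highest in the 4 clusters of high level, with 1q next and 9q below 6p. The bin chr14:20260001-20265000 reached 7.02 in replicate 1 and 7.59 in replicate 2, chr11:6070001-6075000 reached 6.44 and 7.84, chr17:3010001-3015000 reached 6.72 and 6.83, and chr11:4575001-4580000 reached 6.06 and 6.84. On 1q the bin chr1:247650001-247655000, in its marked end, reached 5.21 and 5.34. The maximum was 3.75 and 3.96 on 6p at chr6:29540001-29545000, 2.33 and 2.13 on 9q at chr9:107390001-107395000, and 0.864 and 0.693 on 11q at chr11:56550001-56555000.

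The last question was whether the mark changed at the cluster edges, read over 50 kb on each side. Of 16 edges, 10 were higher inside and 6 higher outside in both libraries, but the step reached 2-fold inwards in both libraries at 4 edges. The sharpest was the lower edge of 17p, with 3.52 in replicate 1 and 3.77 in replicate 2 inside and 0.371 and 0.364 outside, a 9.5-fold and 10.3-fold step. The upper edge of 6p had 2.16 and 2.41 inside and 0.334 and 0.362 outside. On 14q the lower edge had 4.49 and 4.91 inside and 0.798 and 0.897 outside, and the upper edge 0.904 and 0.97 inside and 0.206 and 0.193 outside.

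Other edges fell inside a longer marked stretch. At the upper edge of 17p the level was 3.48 and 3.84 inside and 3.39 and 3.58 outside. At the lower edge of 1q it was 2.67 and 2.88 inside and 3.01 and 3.23 outside, where by gene order the inflammasome gene NLRP3 is the nearest other gene. At the upper edge of 11q the step ran the other way, with 0.414 and 0.392 inside and 1.01 and 1.10 outside, the 1 edge of the 16 at which the outside was over 2-fold higher in both libraries. The upper edge of 1q fell just short of this in replicate 2, with 1.62 and 1.75 inside and 3.35 and 3.45 outside. The intervals have rounded ends that need not coincide with genes, so a step can lie some distance from an edge.

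**Figure D4:**
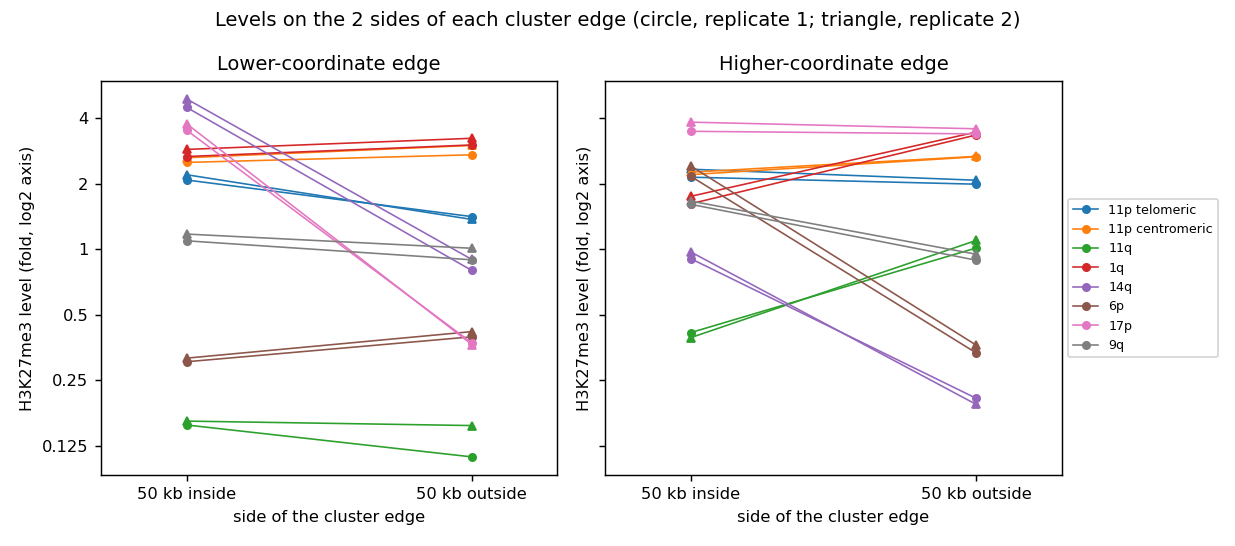
H3K27me3 level (fold over the mean listed autosomal 1 kb bin, log2 axis) in the 50 kb inside and the 50 kb outside each cluster edge, with the lower-coordinate edges on the left and the higher-coordinate edges on the right. Each colour is a cluster, circles are replicate 1 and triangles replicate 2. Steep falls occur at the lower edges of 17p and 14q and the upper edges of 6p and 14q, and 11q rises at its upper edge.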

How the data were processed

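H3K27me3 ChIP-seq of 2 libraries of 1 group was analysed. What the authors deposited are unnormalised counts of reads in 1 kb bins, per the file headers, without the bins that drew no read. The submitters' processing notes name BWA 0.7.12 and the build hg19 (GRCh37). How reads were counted, and whether duplicates or poorly mapped reads were removed, is not given in the sources used here. Reads from near-identical receptor genes may thus be lost or misplaced, which was not tested.

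Computed here were levels over the library's mean of listed autosomal bins of 1 kb, with absent bins as 0, and Poisson calls per 5 kb bin (Benjamini-Hochberg threshold 0.05, at least 2-fold, both libraries). Flanks were 500 kb on either side without bins of another cluster, and ended at the last listed bin of the chromosome. SDs are over 2 libraries, whose spread may be technical; an exact two-sided sign-flip permutation test over them cannot go below p = 0.5, so none is given. Counting error is the dispersion-widened Poisson error and covers counting error only. The calls were tested on simulated data with a flat background and Poisson noise only. That setting lacks the uneven background of these libraries and their dispersion, so it does not show how the calls behave under them. Named were each cluster, the 10 longest enriched runs and the highest 5 kb bin of each cluster. Members and lists were chosen with earlier results of these data known. Splits of a cluster into sections (windows of 50 kb at a level of 1 or more against under 1) and groups of clusters were set after the values were seen. Promoter sequences are RefSeq's on GRCh38.p14. Alternatives were other scalings, flanks, fold minimums, bins and trimming, and each replicate left out. A scaling to bins listed in either library and the omission of 11q were added after the data were seen. Scripts ran under Python 3.11.15 with scipy 1.17.1, numpy 2.4.6, matplotlib 3.10.9 and pandas 2.3.3.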

Additional observations from a re-analysis of the deposited data

How the results depend on the processing

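The level of the clusters, 1.63, was 4.17 when scaled to the median listed autosomal bin, 1.73 when scaled to bins listed in either library and 2.16 without the 11q cluster, and 1.57 to 1.68 with a replicate left out. The level of the flanks, 0.981, was 2.52 and 1.04 under those scalings and 0.933 without the flanks of 11q. It was 1.11 over listed bins, 0.914 without the top 1% of bins, 1.03 with flanks of 250 kb, 0.907 with 1 Mb, and 0.947 to 1.01 with a replicate left out. The log2 ratio of 0.73 was 0.59 over listed bins, 0.77 without the top 1% of bins, 0.66 and 0.84 with flanks of 250 kb and 1 Mb, 0.68 without the outer 50 kb of each cluster, 1.21 without 11q, and 0.73 with either replicate left out. The enriched length of 2150 kb in the clusters stayed within 1.5 times in all alternatives (1490 kb at 3-fold to 3095 kb scaled to the median). In the flanks 1090 kb became 645 kb at 3-fold, 1815 kb without a fold minimum and 2725 kb when scaled to the median. The 2830 kb under 0.5-fold became 745 kb when scaled to the median and 1165 kb without 11q. Of 56 alternatives for the ratio of a single cluster, 55 kept its sign, and that of 1q reversed to 0.13 with flanks of 1 Mb. The SD of the overall ratio is so small that every alternative except leaving out a replicate passed it. The cause of these and the other moves was not tested, though leaving out 11q shows that cluster's own share. No paired analysis was possible because both libraries belong to 1 group. Depth limits the 11q cluster most at 1 kb, where the median of its bins was a level of 0.136 (replicate 1) and 0.16 (replicate 2).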

Other observations

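The marked flank beside 11q held the longest enriched run of any flank that did not reach into a cluster, 205 kb at chr11:56840001-57045000, at 4.62 in replicate 1 and 4.95 in replicate 2. Around the shared beta-globin stretch of 11p, runs of 30 kb, 50 kb and 60 kb lay at chr11:5205001-5235000, chr11:5245001-5295000 and chr11:5315001-5375000, the last reaching 15 kb into the centromeric cluster. Their levels were 2.46 ± 0.0905, 3.70 ± 0.285 and 3.05 ± 0.207 (SD, n = 2). Beside 14q a run of 85 kb at chr14:21170001-21255000 stood at 3.33 and 3.53.

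Class I receptors were found in both 11p clusters, which stood at 2.75 and 3.19. Class II clusters covered the whole range of levels, from 0.185 on 11q to 3.56 on 17p. With 2 clusters on 1 chromosome arm, class and location cannot be told apart.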
